A study of Rattus norvegicus with 8 samples.

Results

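The control arm of the study consisted of 4 RNA-seq libraries, LacZ 1 to LacZ 4, out of 8 libraries in the series. They were chosen by their label alone, and every statement here concerns these 4 libraries. The cells were NRVCMs, neonatal rat ventricular cardiomyocytes, taken from newborn animals into primary culture. They were kept for 24 h in medium with fetal calf serum and then carried, for 72 h, an adenovirus with LacZ, a bacterial enzyme without a role in mammalian cells that served as the control insert. The medium was serum-depleted once the virus was added, and the vector of the study drives its inserts from the CMV promoter. Ventricles were digested with enzymes and fibroblasts were separated on a Percoll gradient, a step that enriches cardiomyocytes without making them pure. The strain is Wistar in the methods and Sprague Dawley in the reporting summary. Each level is an FPKM value, fragments per kilobase of transcript scaled to the mapped total, summed over the transcripts of a gene symbol, which allows levels of different genes to be compared per length. Values are listed in the order LacZ 1, 2, 3 and 4. Neither the labels nor the methods state whether each library had a culture of its own, so the spread between them may be technical, and the labels name no batch.

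Cardiac muscle cells devote their RNA to a few tasks. The sarcomere contracts by sliding thin filaments of actin, troponin and tropomyosin along thick filaments of myosin, and the thin filaments are anchored at the Z-disc. Calcium released from the sarcoplasmic reticulum triggers each beat and is pumped back by a SERCA pump, and mitochondria supply nearly all of the ATP. Around birth, rodent ventricles exchange fetal members of the contractile families for adult ones and move from glucose towards fatty acids as fuel, so a neonatal culture can carry members of both programs.

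The deposited table held 15976 transcripts of 12784 gene symbols. The summed FPKM of the libraries was 546642, 551982, 563051 and 549234, and the depth in reads is unknown. At least 1 FPKM was reached by 12005, 11911, 11689 and 11726 genes, and by 11374 genes in all 4 libraries. In all 4 libraries, 6067 genes reached 10 FPKM, 814 reached 100 FPKM and 38 reached 1000 FPKM, while 5 genes were listed at 0 throughout. Abundance was concentrated. The most abundant gene held 1.88% ± 0.296 (SD, n = 4) of the summed FPKM, the 10 most abundant 9.17% ± 0.554, the 100 most abundant 27.4% ± 0.774 and the 1000 most abundant 64.4% ± 1.59. It took 456, 452, 383 and 413 genes to reach 50% of the summed FPKM.

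**Figure D1:**
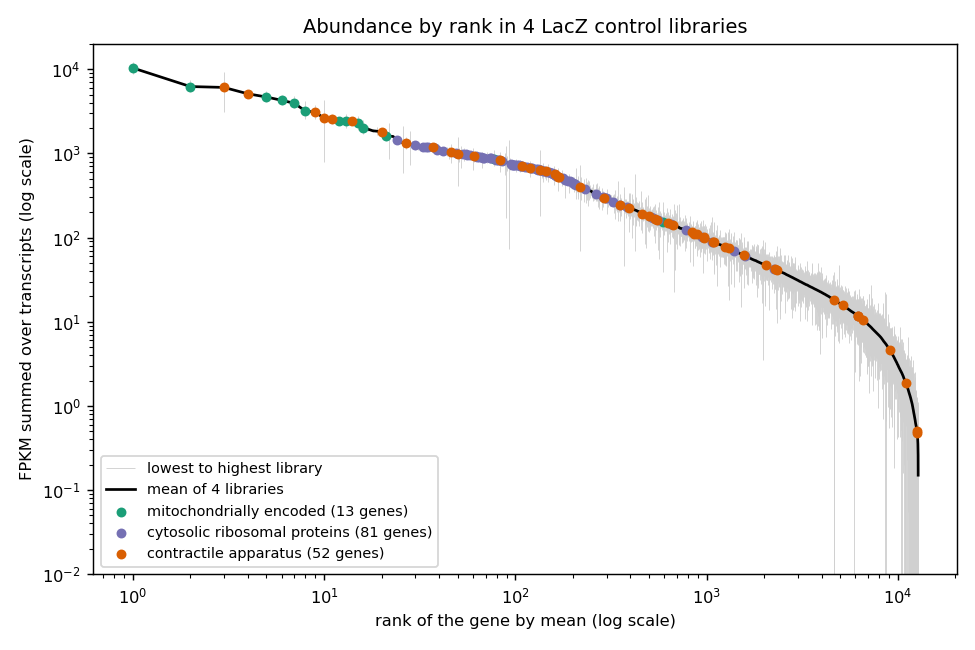
Mean FPKM of each gene (black line, log scale) against its rank (log scale) in the 4 LacZ libraries, with the lowest to the highest library as a grey bar cut at 0.01 FPKM, and 3 gene groups as coloured points. Among the 100 most abundant genes lie 12 of the 13 mitochondrially encoded genes, the leading contractile genes and 30 of the 81 ribosomal protein genes.

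The libraries were not equally alike. Over all genes, the correlation of log2(FPKM + 1) was 0.990 between LacZ 1 and LacZ 2 and 0.995 between LacZ 3 and LacZ 4. For the other 4 pairs it lay between 0.964 and 0.976. Among the 11934 genes that averaged 1 FPKM or more, 74 differed at least 2-fold, with 1 FPKM added to both values, between LacZ 1 and LacZ 2, and 32 between LacZ 3 and LacZ 4. The numbers were 884 for LacZ 1 and 3, 832 for LacZ 1 and 4, 467 for LacZ 2 and 3 and 444 for LacZ 2 and 4. Over all 4 libraries, 1142 of the 11934 genes, 9.57%, had a highest library at least 2-fold above the lowest, and these are called 2-fold genes below. The number was 566 without LacZ 1. LacZ 1 and LacZ 2 were the 2 highest libraries in 785 of them (68.7%) and LacZ 3 and LacZ 4 in 278 (24.3%). This split depended on the scaling. After quantile normalization it was 432 genes (47.4%) and 397 genes (43.6%), and after median-ratio scaling 528 genes (53.4%) and 382 genes (38.6%). The median gene was 0.15 higher on the log2 scale in LacZ 1 than in LacZ 3, and both scalings remove this shift. Over all 11934 genes, 2-fold or not, LacZ 1 and LacZ 2 were the 2 highest libraries in 49.0% as deposited, 35.4% after median-ratio scaling and 35.4% after quantile normalization, and LacZ 3 and LacZ 4 in 23.7%, 35.8% and 35.4%. Counts of such orders in the lists below stand beside these shares, and counts of 2-fold genes beside the 9.57%. The median coefficient of variation (CV) of a gene was 14.7%, with quartiles of 8.46% and 24.6%. Genes that are not among those picked by the naming rule appear below where they show the range of a list, and they were chosen after their values were seen.

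Mt-co1, the first subunit of mitochondrial cytochrome c oxidase, was the most abundant gene, with 12308, 10961, 9424 and 8867 FPKM. LacZ 1 and LacZ 2 were the higher 2 libraries. Mt-cox3, another subunit of that enzyme, came next with 7369, 6315, 5951 and 5326 FPKM, again highest in LacZ 1. The third gene was Actc1, cardiac alpha-actin and the main actin of the heart's thin filament, with 3229, 3149, 9411 and 8574 FPKM. LacZ 3 and LacZ 4 were far higher than the others, and the highest value was 2.99-fold the lowest. Tnnt2, cardiac troponin T, which ties the troponin complex to tropomyosin, followed with 5009.6, 4787, 5433 and 5230.4 FPKM, a narrow range. Tpm1, the alpha-tropomyosin that blocks and frees the myosin sites on actin, had 2554, 2630.1, 3754 and 3485 FPKM. Ankrd1, a stress-responsive ankyrin-repeat protein of the sarcomere and the nucleus, was among the 10 most abundant genes at 783, 1135, 4328 and 4251 FPKM, a range of 5.52-fold. Ankrd1 and Actc1 were the only 2-fold genes among these 10. Other leading genes were steadier. Tnnc1, the calcium-binding troponin, had a mean of 2556 ± 354 FPKM (SD, n = 4), Myl3, the ventricular essential light chain, 2414 ± 136 FPKM, Sparc, a matrix glycoprotein, 1942 ± 114 FPKM, Tpt1, the translationally controlled tumour protein, 1858 ± 66.6 FPKM, and Atp5b, the catalytic subunit of ATP synthase, 1836 ± 227 FPKM. Fth1, the iron-storing ferritin heavy chain, had the smallest CV among the 25 most abundant genes at 2.14%, with 1365, 1417, 1388 and 1349.7 FPKM.

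To set these levels beside sequence, promoters were taken from RefSeq (build GRCr8), where 9176 of the measured genes had a single window from 250 bases before to 50 bases after the annotated start. In all, 4 motifs were searched. TATAA, the core of the TATA box, was searched on the gene's strand from 45 to 11 bases before the start, CTTTC or CTTTT, a stretch of pyrimidines typical of ribosomal protein genes, on the gene's strand from 10 bases before to 15 after the start, and CATTCC, the element bound by TEAD factors, on both strands of the whole window. The CArG box, the element bound by SRF, was searched on both strands of the whole window and reads alike on both. By their letters, a CArG box can hold TATAA or CTTTT inside it, and the other motifs cannot hold one another. The 140 bases before the start are printed for 5 genes, because they show the motifs beside steady and variable levels, with the matches in capitals. The other matches of these genes lay outside the printed stretch. All 5 stretches lie upstream of the annotated transcript start. Acta1 (chr19:68784195-68784334, minus strand) and Nppb (chr5:163699868-163700007, plus strand), skeletal alpha-actin and B-type natriuretic peptide, are among the most variable genes. Ctgf (chr1:22624615-22624754, minus strand, Ccn2 in RefSeq), a matricellular protein, is another of them. Myl3 (chr8:119616954-119617093, plus strand) and Rps27 (chr2:177964607-177964746, minus strand), a protein of the small ribosomal subunit, were abundant and steady.
Acta1: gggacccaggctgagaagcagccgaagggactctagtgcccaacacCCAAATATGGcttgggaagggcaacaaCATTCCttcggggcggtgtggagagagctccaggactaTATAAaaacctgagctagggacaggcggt
Nppb: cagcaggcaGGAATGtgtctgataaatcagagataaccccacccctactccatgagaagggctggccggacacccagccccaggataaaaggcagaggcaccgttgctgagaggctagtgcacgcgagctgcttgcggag
Ctgf: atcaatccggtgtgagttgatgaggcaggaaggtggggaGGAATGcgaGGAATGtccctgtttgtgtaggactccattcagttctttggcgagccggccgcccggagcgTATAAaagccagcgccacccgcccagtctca
Myl3: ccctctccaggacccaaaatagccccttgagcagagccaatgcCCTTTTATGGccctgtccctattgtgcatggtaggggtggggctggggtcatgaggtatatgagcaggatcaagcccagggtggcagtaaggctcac
Rps27: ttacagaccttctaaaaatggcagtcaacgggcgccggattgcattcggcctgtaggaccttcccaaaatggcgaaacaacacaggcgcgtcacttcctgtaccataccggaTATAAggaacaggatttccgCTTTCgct

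In these stretches the CArG box began 94 bases before the start in Acta1 and 97 bases before it in Myl3. CATTCC began 67 bases before the start in Acta1, and its reverse complement lay 131 bases before the start in Nppb and 101 and 92 bases before it in Ctgf. TATAA stood 29 bases before the start in Acta1, 31 in Ctgf and 28 in Rps27, and Rps27 also held CTTTC 8 bases before the start. TATAA was found in 15 of 65 promoters of the 100 most abundant genes (23.1%) and in 2.32% of all 9176 matched promoters, or 3.74% of the 24206 promoters in the table. CTTTC or CTTTT was found in 32 of 64 ribosomal protein promoters (50%), against 4.40% of the matched promoters and 5.12% of the table. The CArG box was in 5 of 36 promoters of contractile genes (13.9%), against 1.24% and 1.65%, and CATTCC in 9 of the same 36 (25%), against 11.03% and 13.7%. Among the 100 genes with the largest spread at a mean of at least 10 FPKM, 71 had a promoter. Of these, 14 held CATTCC (19.7%, against 11.1% of all genes at that level), 3 held the CArG box (4.23%, against 1.32%) and 0 held CTTTC or CTTTT near the start (against 4.69%). These shares were not tested, and a match does not show that a factor binds.

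The 13 mitochondrially encoded proteins and the 84 nuclear genes of the respiratory chain found in the table held 16.7%, 15.3%, 13.7% and 13.1% of the summed FPKM. The mitochondrial genome alone held 9.72, 8.23, 7.35 and 6.94% of the summed FPKM, the largest value being in LacZ 1. In 12 of the 13 genes LacZ 1 and LacZ 2 were the 2 highest libraries (6 of 13 after median-ratio scaling), beside 49.0% and 35.4% of all genes, and 0 of the 13 were 2-fold genes, beside 9.57% of all genes. Mt-nd6, the only protein encoded on the light strand of the mitochondrial genome, was at 161, 157, 165 and 133 FPKM and ranked last of the 13. Mt-atp8 and Mt-atp6, and Mt-nd4l and Mt-nd4, overlap on the mitochondrial genome, so the division of reads between them is uncertain. Mt-atp8 was at 4152, 3216, 2815 and 2569 FPKM. The nuclear subunits held 6.66% ± 0.471 (SD, n = 4), with a median CV of 7.73% and 1 of 84 genes 2-fold (0 without LacZ 1). Cox7a1, the muscle form of a cytochrome oxidase subunit that rises after birth, was that gene, with 3.18, 1.29, 0.916 and 0.712 FPKM, the lowest level of the list. LacZ 1 and LacZ 2 were the 2 highest libraries in 62 of the 84 nuclear genes as deposited, in 26 after median-ratio scaling and in 78 after quantile normalization. The shares of all genes were 49.0%, 35.4% and 35.4%, so for this order the list stood below all genes after median-ratio scaling and above them otherwise. LacZ 3 and LacZ 4 were the 2 highest in 2, 11 and 0 of the 84. The shares of all genes with that order were 23.7%, 35.8% and 35.4%, so the list stood below them each time. Cox8b, the heart form of subunit 8, had the next largest spread, with 986, 1017, 593 and 549.5 FPKM. Sdha, the succinate-binding subunit of complex II, had 321, 296, 228 and 228 FPKM. In bulk RNA, fewer cells of a type and less RNA per cell cannot be told apart, here and below.

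**Figure D2:**
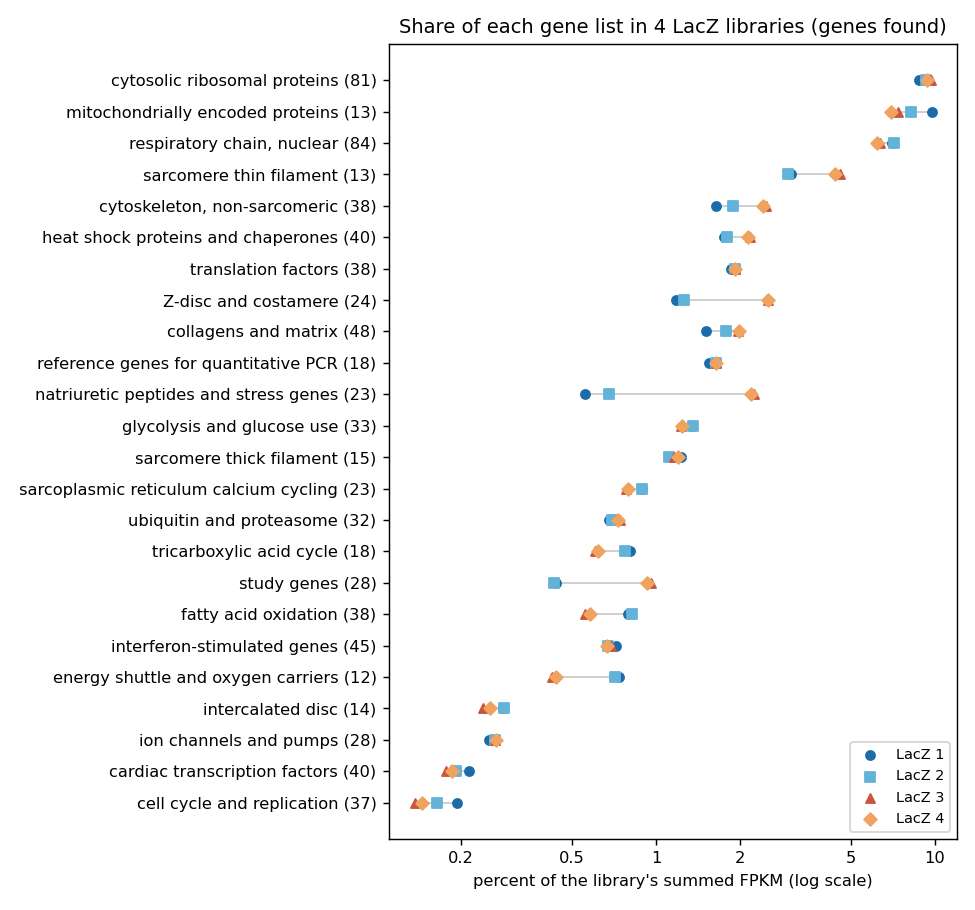
Share of the summed FPKM (log scale) held by each of 24 gene lists in each LacZ library, 1 symbol per library, with the number of genes found in parentheses. The natriuretic peptide and stress list ran from 0.556% in LacZ 1 to 2.24% in LacZ 3, while translation factors stayed between 1.86% and 1.92%.

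Ribosomal proteins had the largest mean share of the 24 lists. The 81 cytosolic ribosomal protein genes found held 8.73, 9.26, 9.66 and 9.36% of the summed FPKM, and 76 of them exceeded a mean of 100 FPKM. Rpl41, which encodes a very short basic protein of the large subunit, led with 1289, 1353, 1622 and 1504 FPKM, followed by Rps27 with 1101, 1209, 1404 and 1318 FPKM and Rps29 with 1176, 1209.8, 1252 and 1153 FPKM. The lowest member was Rpl10l, a retrogene-derived form known from testis. The list was tight, with a median CV of 6.20% and 0 of 81 genes 2-fold. LacZ 3 and LacZ 4 were the 2 highest libraries in 45 of the 81 as deposited, in 71 after median-ratio scaling and in 24 after quantile normalization, beside 23.7%, 35.8% and 35.4% of all genes, so the order depended on the scaling. Rpl39 was an exception to the tight range, with 531, 298, 567 and 555 FPKM and its low value in LacZ 2. Several ribosomal protein genes have near-identical processed copies, so their single values are uncertain. Translation factors held 1.90% ± 0.0319, a list that also counts Tpt1, its most abundant member. Among the factors proper were Eef1a1, which delivers aminoacyl-tRNA to the ribosome, at 1540.2, 1665, 1602 and 1554 FPKM, and Eef2, the translocase, at 840.4, 875, 776 and 787 FPKM. Eif1a, an initiation factor, had the largest spread of that list, at 38.1, 35.4, 63.3 and 58.6 FPKM. Proteasome and ubiquitin genes held 0.713% ± 0.0293 with a median CV of 5.50%, the smallest of the 24 lists, and 0 of 32 were 2-fold.

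The contractile apparatus, 52 genes of the thick filament, thin filament and Z-disc, held 5.45%, 5.34%, 8.25% and 8.09% of the summed FPKM. Its parts behaved differently. The thick filament stayed at 1.23, 1.11, 1.16 and 1.20%, the thin filament ran at 3.04, 2.97, 4.57 and 4.38% and the Z-disc list at 1.18, 1.26, 2.52 and 2.51%. Of the thick filament, Myh7, the slow beta-myosin heavy chain, was at 2013, 1761, 1631 and 1776 FPKM and Myl2, the ventricular regulatory light chain, at 664, 599, 1030.0 and 1017 FPKM, higher in LacZ 3 and LacZ 4. Myom2, which crosslinks myosin in the M-band, ran the other way at 137, 129, 38.5 and 49.4 FPKM, a range of 3.49-fold. The thick filament list held 3 of 14 2-fold genes (21.4%, beside 9.57% of all genes), Myom2, Myom3 and Myh7b. All 3 were highest in LacZ 1 and LacZ 2, as were 68.7% of all 2-fold genes. The number was 2 without LacZ 1, and also 2 after median-ratio scaling or quantile normalization. Mybpc3, the cardiac myosin-binding protein C, was at 643, 571, 510.2 and 537 FPKM. In the thin filament list, 3 of 12 were 2-fold genes (25%, and 2 without LacZ 1), namely Actc1, Acta1 and Tpm3. All 3 were highest in LacZ 3 and LacZ 4, as were 24.3% of all 2-fold genes. Acta1 had 113, 69.2, 727 and 685 FPKM. Tpm3, the slow-muscle and cytoplasmic tropomyosin, had 88.0, 107, 199 and 196 FPKM. The actins have near-identical coding sequences, so reads can be divided between them with error. Titin was not analysed here.

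At the Z-disc and the costamere, the lateral anchor of the sarcomere, 11 of 24 genes were 2-fold genes, the list's share being 45.8% beside 9.57% of all genes. LacZ 3 and LacZ 4 were the 2 highest libraries in 20 of the 24 as deposited, as after each of the 3 other scalings, beside 23.7% of all genes as deposited and at most 35.8% after a scaling. Csrp3, the muscle LIM protein, had 413, 449, 1570.1 and 1548 FPKM, 3.80-fold from lowest to highest. Fhl1, a LIM-domain protein of striated muscle, had 183, 209, 1108 and 1036 FPKM, and Xirp2, an actin-binding Xin-repeat protein, 11.2, 9.54, 63.4 and 80.0 FPKM. In all 3 genes LacZ 3 and LacZ 4 lay far above the other libraries. Cryab, the small heat shock protein that protects desmin, had 763, 828, 1297 and 1245 FPKM, and Des, the muscle intermediate filament protein, 619, 617, 824 and 781 FPKM. Fhl2, another LIM protein, did not share this order, with 329, 301, 282 and 285 FPKM.

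Genes of calcium cycling varied between libraries about as much as all genes, with a median CV of 14.8% beside 14.7%. Pln, the inhibitor of the SERCA pump, led the list with 1371, 1348, 1095 and 1091 FPKM, ahead of Atp2a2, the cardiac SERCA pump itself, with 1158, 1109, 814 and 823 FPKM, and Casq2, the calcium store of the sarcoplasmic reticulum, with 717, 719.6, 671 and 652 FPKM. All 3 were higher in LacZ 1 and LacZ 2, and none was a 2-fold gene. Hrc, the histidine-rich calcium-binding protein of the same store, had the largest spread of the list, with 106, 103, 39.4 and 40.2 FPKM. Slc8a1, the sodium-calcium exchanger, had 154, 143, 269 and 273 FPKM and was higher in LacZ 3 and LacZ 4. Ryr2, the release channel, was at 36.0, 40.4, 38.2 and 45.01 FPKM. The list held 2 of 22 2-fold genes, a share of 9.09% that lies near the 9.57% of all genes (1 without LacZ 2).

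Ion channels and pumps were much less abundant and more variable. Fxyd1, which regulates the sodium pump, led with 381, 399, 530.0 and 502 FPKM, and the pump subunit Atp1b1 followed with 232, 276, 360.3 and 348 FPKM. The list held 12 of 27 2-fold genes, 44.4% beside 9.57% of all genes, and 8 when LacZ 1 was left out. LacZ 1 and LacZ 2 were the 2 highest libraries in all 12 as deposited and in 8 of 10 after median-ratio scaling, beside 68.7% and 53.4% of all 2-fold genes. Kcnip2, the beta subunit of the transient outward potassium channel, had the largest spread, with 10.7, 7.82, 1.45 and 1.98 FPKM, 4.77-fold with 1 FPKM added. Kcnh2, the channel of the rapid delayed rectifier current, had 59.1, 37.4, 17.6 and 14.5 FPKM. Hcn4, a pacemaker channel, had 17.1, 11.2, 20.2 and 22.0 FPKM. At the intercalated disc, which couples neighbouring cells, 0 of 14 genes were 2-fold genes. Gja1, the gap junction protein connexin 43, had 489.7, 511, 339 and 354 FPKM. Cdh2, N-cadherin, had 317, 326, 319 and 326 FPKM, a CV of 1.36%. Dsp, desmoplakin, had the largest spread of this list, with 108, 106, 60.2 and 64.0 FPKM.

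Genes for burning fatty acids held 0.793, 0.818, 0.556 and 0.580% of the summed FPKM. LacZ 1 and LacZ 2 were the 2 highest libraries in 32 of 37 genes as deposited and in 30 of 37 after median-ratio scaling, beside 49.0% and 35.4% of all genes. Of these, 7 of 37 were 2-fold genes (18.9%, beside 9.57% of all genes), with or without any single library. Fabp3, which carries fatty acids in the cytosol of muscle, was the most abundant at 942, 1045, 761 and 774 FPKM. Acadl, the long-chain dehydrogenase of beta-oxidation, was nearly level at 277, 277, 264 and 258 FPKM, and Hadhb, a subunit of the trifunctional protein, had 238, 240.0, 189 and 188 FPKM. Acsl1, which activates fatty acids in the heart, had 145, 133, 37.0 and 40.2 FPKM, and Cpt2, the inner carnitine palmitoyltransferase, had 33.6, 30.7, 12.8 and 14.5 FPKM. Both were much lower in LacZ 3 and LacZ 4. Mb, myoglobin, the oxygen store of muscle, followed the same order with 1864, 1754, 732 and 795 FPKM. Ckmt2, the creatine kinase of muscle mitochondria, had 22.5, 20.5, 6.64 and 5.56 FPKM. Of the tricarboxylic acid cycle, 17 of 18 genes were highest in LacZ 1 and LacZ 2 as deposited and 12 after median-ratio scaling (49.0% and 35.4% of all genes), and 0 of 18 were 2-fold. Idh2, the mitochondrial isocitrate dehydrogenase, had 702, 688, 422 and 452 FPKM there. The list also counts Mdh1, the cytosolic malate dehydrogenase, with 636, 655, 514 and 498 FPKM. Mdh2, the mitochondrial form, had 514, 509, 462 and 453 FPKM.

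Glycolysis genes held 1.35, 1.36, 1.23 and 1.24% and were led by Gapdh, with 1134, 1132, 1011 and 1029 FPKM, and Aldoa, aldolase A, with 1008, 1075, 1047 and 1003 FPKM. The list held 6 of 33 2-fold genes, 18.2% beside 9.57% of all genes. Beside 68.7% of all 2-fold genes as deposited, all 6 were highest in LacZ 1 and LacZ 2, under each of the 3 other scalings as well. They were the glucose transporter of muscle and fat, Slc2a4, the muscle phosphofructokinase Pfkm, the muscle mutase Pgam2, the brain-type glycogen phosphorylase Pygb, and Pdk1 and Pdk2, kinases that switch off pyruvate dehydrogenase. Pdk2 had 80.7, 74.7, 24.8 and 26.2 FPKM. Pfkm had 184, 168, 69.1 and 75.1 FPKM, while Pfkp, the platelet-type enzyme, ran the other way with 80.0, 75.8, 137 and 124 FPKM.

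Cardiac transcription factors held only 0.192% ± 0.0156 of the summed FPKM, and 1 of the 40 found, Nkx2-5, exceeded a mean of 100 FPKM. This homeobox factor of heart muscle had 139.6, 122, 135 and 132 FPKM. Smyd1, a muscle histone methyltransferase, had 111, 114, 75.2 and 78.8 FPKM and Mef2a, a MADS-box factor, 82.0, 93.2, 86.2 and 76.1 FPKM. Gata4, a zinc-finger factor of the heart, had 81.9, 65.2, 84.9 and 91.0 FPKM. The 2-fold genes were 8 of 39, 20.5% beside 9.57% of all genes, and 2 without LacZ 1. LacZ 1 and LacZ 2 were highest in 6 of the 8 as deposited and in 4 of 7 after median-ratio scaling. The shares of all 2-fold genes with that order were 68.7% and 53.4%. Rxrg, a retinoid X receptor, had the largest spread with 24.5, 17.5, 2.36 and 1.99 FPKM, and Ppara, a lipid-sensing receptor, was at 10.9, 8.77, 3.54 and 3.76 FPKM. Srf, the factor of the CArG box, was the only 2-fold gene of the list with LacZ 3 and LacZ 4 highest, at 35.7, 40.5, 79.1 and 79.0 FPKM.

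Cell cycle and replication genes were low, 0.160% ± 0.0248 of the summed FPKM in all, with the highest median CV of the 24 lists, 35.3%. The inhibitor Cdkn1a led with 120.0, 89.5, 118 and 115 FPKM, and the kinase Cdk4 with 113, 119.5, 101 and 101 FPKM and the cyclin Ccnd3 with 82.4, 92.8, 88.8 and 93.6 FPKM followed. The list held 15 of 37 2-fold genes (40.5%, beside 9.57% of all genes), but only 1 when LacZ 1 was left out. All 15 had LacZ 1 and LacZ 2 the highest, beside 68.7% of all 2-fold genes. After quantile normalization, 7 of 8 2-fold genes had that order, beside 47.4%. Kif20a, a kinesin of cell division, had 20.2, 11.04, 5.09 and 5.67 FPKM. Top2a, the topoisomerase of mitosis, had 18.2, 11.3, 5.12 and 6.25 FPKM, and Mki67, the proliferation marker, 7.73, 4.88, 2.98 and 3.53 FPKM. In each of these 3 genes LacZ 1 was the highest and LacZ 2 lay between it and the others.

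Among the 24 lists, the share of stress genes differed most between libraries relative to its mean. In percentage points the mitochondrially encoded genes differed more, with an SD of 1.23 against 0.925. The natriuretic peptide and stress list held 0.556, 0.678, 2.24 and 2.19%, and LacZ 3 and LacZ 4 were the 2 highest libraries in 18 of the 21 members that averaged 1 FPKM or more, beside 23.7% of all genes. Of these, 10 of 21 were 2-fold genes (8 without LacZ 1), 47.6% beside 9.57% of all genes. Some lists share members, so they are not separate observations. Ankrd1 is in both the stress and the Z-disc list, Ctgf in the stress and the matrix list, and Cryab in the Z-disc and the heat shock list. Nppa, atrial natriuretic peptide, had 748, 593, 2109.6 and 1878 FPKM. Ctgf had 171, 504, 1233 and 1225 FPKM, with LacZ 2 between LacZ 1 and the other pair. Rcan1, an inhibitor and target of calcineurin, had 45.9, 107, 391 and 399 FPKM, in the same order. Of the immediate early genes, Fos had 6.03, 6.68, 12.4 and 14.3 FPKM and Jun 36.0, 23.6, 32.3 and 30.9 FPKM. Of the non-sarcomeric cytoskeleton, 35 of 38 genes were highest in LacZ 3 and LacZ 4 as deposited and 32 after quantile normalization, beside 23.7% and 35.4% of all genes. The list held 5 of 38 2-fold genes as deposited, 13.2% beside 9.57% of all genes. The number was 3 without LacZ 1, 12 after median-ratio scaling and 4 after quantile normalization. Tmsb4x, which binds actin monomers, was the most abundant with 939, 1020.1, 1200.0 and 1100.2 FPKM, and Actn1, non-muscle alpha-actinin, had the largest spread with 67.6, 86.9, 223 and 216 FPKM. Heat shock proteins and chaperones held 1.75, 1.80, 2.18 and 2.13%. Hspb7, a small heat shock protein of heart muscle, had 604, 605, 865 and 828 FPKM and Hspb3, another, 97.8, 131, 326 and 325 FPKM, the largest spread of the list. The list held 4 of 40 2-fold genes, a share near the 9.57% of all genes, and 2 when LacZ 1 was left out. LacZ 3 and LacZ 4 were its 2 highest libraries in 29 of 40 as deposited, 35 after median-ratio scaling and 29 after quantile normalization. The shares of all genes were 23.7%, 35.8% and 35.4%.

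Other cell types were present. Fibroblast markers, 12 of 14 found, held 0.329, 0.372, 0.335 and 0.351% of the summed FPKM, and 0 of 12 were 2-fold genes. Col3a1, the fibrillar collagen III, had 723, 799.5, 678 and 709 FPKM and Col1a1, collagen I, 580.2, 712, 659 and 689 FPKM. Macrophage and leukocyte markers, 16 of 18 found, held 0.0969, 0.103, 0.122 and 0.122%, with Lyz2, lysozyme, at 251, 263, 330.5 and 323 FPKM. None was 2-fold, 0 of 16, beside 9.57% of all genes. LacZ 3 and LacZ 4 were the 2 highest libraries in 15 of the 16 as deposited, after median-ratio scaling and after quantile normalization. The shares of all genes were 23.7%, 35.8% and 35.4%. Endothelial markers, 13 of 15 found, held 0.0389, 0.0461, 0.0400 and 0.0403%, with Cdh5, the cadherin of endothelial junctions, at 32.2, 36.6, 30.1 and 31.3 FPKM. The 4 Schwann cell and neuron markers found were all below 5 FPKM, and Hba-a2, an alpha-globin, stood at 0.570, 2.48, 2.12 and 2.49 FPKM. Of the epicardial markers found, Krt18 was the highest with 13.0, 10.9, 17.6 and 17.3 FPKM. Smooth muscle and pericyte markers, 12 of 12 found, held 0.450, 0.559, 0.854 and 0.796%, most of it in Acta2 and Tagln. As deposited, LacZ 3 and LacZ 4 were highest in 5 of the 12 and LacZ 1 and LacZ 2 in another 5. The shares of all genes were 23.7% and 49.0%. After median-ratio scaling the numbers were 6 and 2, beside 35.8% and 35.4%, and after quantile normalization 6 and 1, beside 35.4% for each. The 2-fold genes were 2 of 12 (1 without LacZ 1), 16.7% beside 9.57% of all genes, and 3 after either scaling. Acta2, smooth muscle actin, had 865, 1196, 2324 and 2055 FPKM and Tagln, an actin-binding protein of smooth muscle, 633, 859.9, 1167 and 1067 FPKM, while Pdgfrb, the pericyte receptor, had 45.6, 47.3, 43.2 and 44.3 FPKM and Rgs5, a pericyte regulator of G-protein signals, 51.4, 59.4, 51.0 and 47.0 FPKM. Both of these were level across the libraries. The part of other cell types in the differences between libraries was not tested. Cardiomyocyte markers, 15 of 16 found, held 4.04, 3.80, 5.58 and 5.46%. Their summed FPKM was 22070, 20996, 31423 and 29978, of which Actc1 alone held 3229, 3149, 9411 and 8574. Much of the rise in LacZ 3 and LacZ 4 thus lay in Actc1. LacZ 3 and LacZ 4 were the 2 highest libraries in 8 of the 15 and LacZ 1 and LacZ 2 in 4, beside 23.7% and 49.0% of all genes. These numbers were 10 and 2 after median-ratio scaling and 7 and 6 after quantile normalization. Actc1, Nppa and Csrp3, all highest in LacZ 3 and LacZ 4, were the 2-fold genes, 3 of 15 (20%, beside 9.57% of all genes). The atrial light chain Myl7 was present at 61.5, 56.4, 65.3 and 61.9 FPKM. The defining ventricular markers Myl2 and Myl3 stood far above Myl7.

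The matrix list held 1.52, 1.78, 1.96 and 1.98%. Sparc led with 1859.9, 2102, 1948 and 1860.3 FPKM and Mgp, an inhibitor of calcification, had 636, 760.1, 889 and 756 FPKM. The list held 5 of 48 2-fold genes, a share near the 9.57% of all genes. Of these, 4 were highest in LacZ 3 and LacZ 4, among them the secreted proteins Ctgf, Cyr61 and Thbs1, and Lama2, the laminin chain of muscle basement membrane, was highest in LacZ 1 and LacZ 2 with 47.7, 47.6, 22.7 and 27.3 FPKM, but not a 2-fold gene after median-ratio scaling or quantile normalization. Interferon-stimulated genes were present at baseline, 0.720, 0.671, 0.688 and 0.668% of the summed FPKM, and steady, with a median CV of 11.7% and 1 of 43 2-fold. Ifi27 led with 713, 773, 834 and 794 FPKM, and Ifitm3, which blocks viral entry, had 294, 341, 417 and 379.6 FPKM. Psmb8, the immunoproteasome subunit that was 2-fold, had 12.3, 4.77, 13.7 and 4.61 FPKM, high in LacZ 1 and LacZ 3.

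The 28 genes around which the study was built had a median level of 59.4 FPKM, and 3 of 28 were 2-fold genes (10.7%, near the 9.57% of all genes), namely Nppa, Nppb and Rcan1. Hectd3, the ubiquitin ligase under study, had its native level in these libraries, with 7.89, 7.86, 6.18 and 6.49 FPKM. Sumo2, a small modifier joined to other proteins, had 193, 196, 183 and 194 FPKM, and the closely related Sumo3 had 55.5, 54.3, 44.96 and 41.3 FPKM. Of the catalytic subunits of calcineurin, Ppp3cb had 36.1, 36.0, 37.3 and 39.3 FPKM, Ppp3ca 29.1, 30.3, 31.6 and 31.5 FPKM and Ppp3cc 16.2, 14.4, 9.89 and 9.11 FPKM. Among the NFAT factors it activates, Nfatc3 was the highest with 13.8, 13.1, 10.0 and 10.96 FPKM, and Nfatc1, Nfatc2 and Nfatc4 had means of 2.00, 2.62 and 4.24 FPKM.

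At a mean of at least 10 FPKM, 15 genes with the largest SD of log2(FPKM + 1) were taken by rule. Most of them had 1 of the 2 orders already described. Rnd1 had 3.55, 6.39, 92.7 and 92.0 FPKM, 20.6-fold from lowest to highest. Tnfrsf12a, the receptor of the cytokine TWEAK, had 22.8, 43.0, 252 and 244 FPKM, Gadd45g, a stress-induced growth regulator, 55.6, 38.9, 263 and 259.7 FPKM, and Lmcd1, a LIM protein, 14.9, 22.8, 107 and 112 FPKM. Mybpc2, the fast skeletal myosin-binding protein C, had 2.53, 2.25, 20.5 and 19.6 FPKM, and Ccl20, a chemokine, 4.09, 9.40, 38.2 and 39.1 FPKM. These 6 genes were all highest in LacZ 3 and LacZ 4, and Rxrg and LOC691485 were highest in LacZ 1 and LacZ 2. Of the other members, 3 were listed at 0 in some library and present in the rest. Polr2l, a subunit shared by the RNA polymerases, had 24.8, 24.1, 0 and 24.1 FPKM, Selenow, a selenoprotein, 0, 12.6, 17.1 and 20.5 FPKM, and LOC100910308 39.3, 0, 0 and 32.9 FPKM. A listed 0 in a table of estimates need not mean that a gene is silent. A different pattern, chosen after its values were seen, was a high value in LacZ 1 alone. Hist1h1c, a linker histone, had 567, 126, 85.0 and 69.7 FPKM and Chac1, a glutathione-degrading enzyme of the stress response, 46.7, 5.65, 8.45 and 5.85 FPKM.

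**Figure D3:**
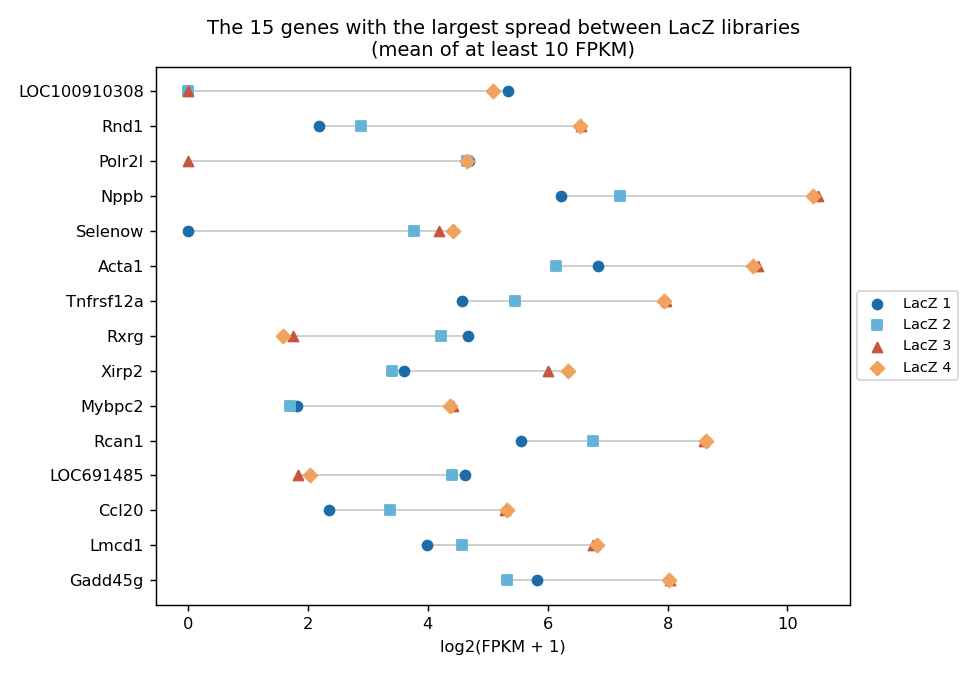
log2(FPKM + 1) in each LacZ library for the 15 genes with the largest spread at a mean of at least 10 FPKM, 1 symbol per library joined by a grey line. In Nppb, Acta1, Rcan1 and 7 other genes the symbols of LacZ 3 and LacZ 4 lie together at the right, and in Polr2l, Selenow and LOC100910308 a symbol lies at 0.

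The other end of the scale held genes that hardly moved. Among the 10 smallest spreads were those of Med4, Crls1, Srp19, Pkm, Chchd1, Saraf, Gmps, Tspyl1 and Tmem256. Med4, a Mediator subunit, had 19.7, 19.8, 19.8 and 19.7 FPKM, a CV of 0.167%. Pkm, pyruvate kinase of muscle and the most abundant of these, had 239, 239, 238 and 235 FPKM, a CV of 0.757%. Among the 18 genes commonly used as references in quantitative PCR, 0 of 18 were 2-fold genes, and the smallest CV was 3.27%, for Pgk1, phosphoglycerate kinase. Eef1a1, Rpl13a and Tfrc had CVs of 3.54%, 3.78% and 3.99%. Gapdh had a CV of 6.12% and Rpl32, the control gene of the study's quantitative PCR, 7.99%. Actb, cytoplasmic actin, was higher in LacZ 3 and LacZ 4, with 852, 1009, 1159 and 1184 FPKM and a CV of 14.6%. Hprt1, of purine salvage, had 36.7, 42.3, 60.5 and 65.1 FPKM and a CV of 26.9%, again with LacZ 3 and LacZ 4 highest. Polr2a, the large subunit of RNA polymerase II, ran the other way with 24.1, 19.3, 15.2 and 17.1 FPKM and a CV of 20.2%.

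**Figure D4:**
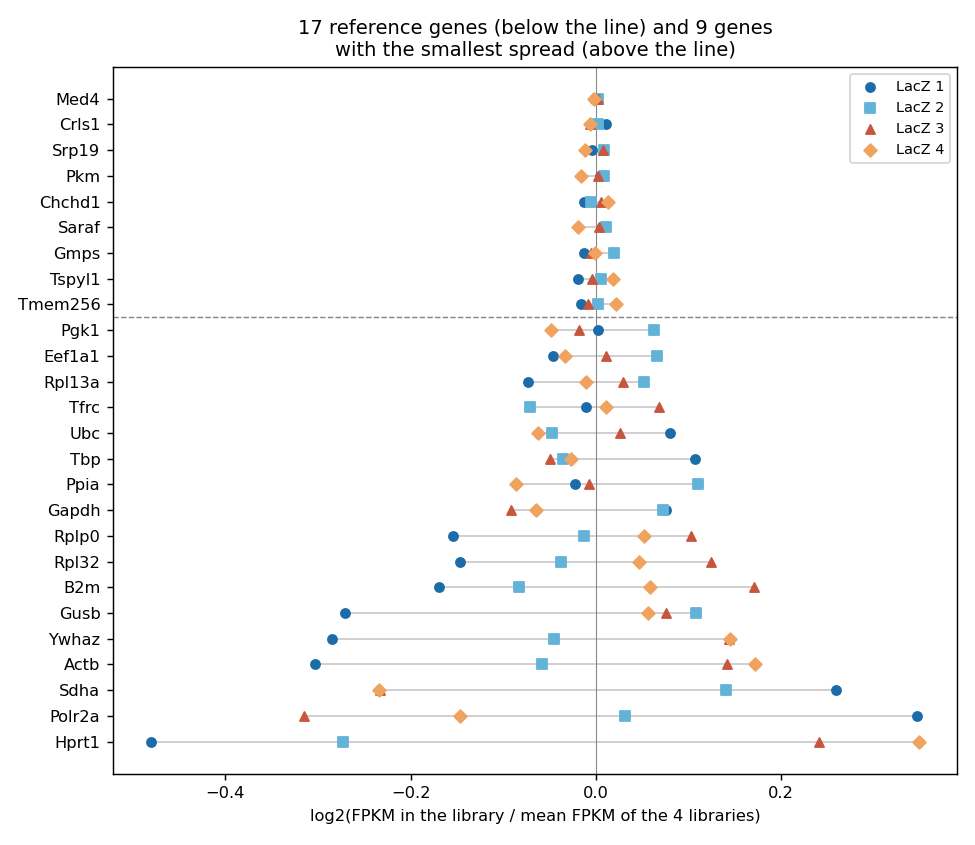
log2 of the FPKM in each LacZ library over the mean of the 4 libraries for 17 reference genes (below the dashed line) and 9 of the 10 genes with the smallest spread (above it). Pgk1 and Eef1a1 stay close to 0, while in Hprt1 the symbols of LacZ 3 and LacZ 4 lie well to the right of those of LacZ 1 and LacZ 2.

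Many contractile and metabolic proteins exist in fetal and adult, or muscle and general, forms encoded by different genes. Shares of 21 such families were computed within each library, where a factor common to the family cancels. Myh7, the form of the fetal rodent ventricle, held 89.4, 89.5, 87.9 and 88.8% of the myosin heavy chains and Myh6, the fast form of the adult rodent ventricle, the rest, 11.1% ± 0.729 (SD, n = 4). Tnni3, the adult cardiac troponin I, held 57.9, 54.8, 48.7 and 48.9% against Tnni1, the slow skeletal form of the fetal heart, so the 2 forms were close to equal and the larger share changed sides between libraries. When the most abundant transcript alone was counted, the mean share of Tnni3 was 67.8% instead of 52.6%. Actc1 held 96.6, 97.8, 92.8 and 92.6% of the sarcomeric actins over Acta1. Myl2 held 92.8% ± 1.56 of the regulatory light chains over the atrial Myl7, and Myl3 held 95.7% ± 0.315 of the essential light chains over the atrial and fetal Myl4. The troponin T family was Tnnt2 alone, since Tnnt1 was at 0.438, 0.728, 0.708 and 0.127 FPKM.

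Several metabolic families were mixed. Ldhb, the heart lactate dehydrogenase, held 56.1, 53.6, 46.4 and 47.5% over Ldha, the muscle form. Cox8b held 58.0, 58.0, 44.2 and 44.6% over the general Cox8a. Slc2a4, the insulin-responsive glucose transporter, held 53.4, 57.7, 36.8 and 36.4% over Slc2a1, the fetal and general form. Pgam2, the muscle form of phosphoglycerate mutase, held 25.2, 18.4, 5.94 and 7.40% over Pgam1. In each of these 4 families the member whose share is given had its 2 highest shares in LacZ 1 and LacZ 2. Cpt1b, the muscle carnitine palmitoyltransferase, went the other way, at 66.0, 65.5, 74.5 and 73.3% over the liver form Cpt1a. Cox6a2, a heart and skeletal muscle subunit, held 68.2% ± 1.28 over Cox6a1, while the muscle form Cox7a1 held 0.172% ± 0.123 over Cox7a2. Ckm, muscle creatine kinase, held 91.5% ± 1.75 over the brain form Ckb, and the muscle enolase Eno3 held 8.26% ± 2.65 against Eno1. Hk2, the insulin-regulated hexokinase, held 10.9% ± 1.66 against Hk1. Eef1a1 held 84.6% ± 1.23 over Eef1a2, the form of adult muscle and neurons, and the translocase Slc25a4 of heart and muscle 74.2% ± 1.85 over Slc25a5. Nppa held 91.0, 80.1, 59.1 and 57.7% of the natriuretic peptides over Nppb, a share that ranged more than that of any other family. Ppp3cb held 46.3% ± 2.31 of the calcineurin subunits.

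**Figure D5:**
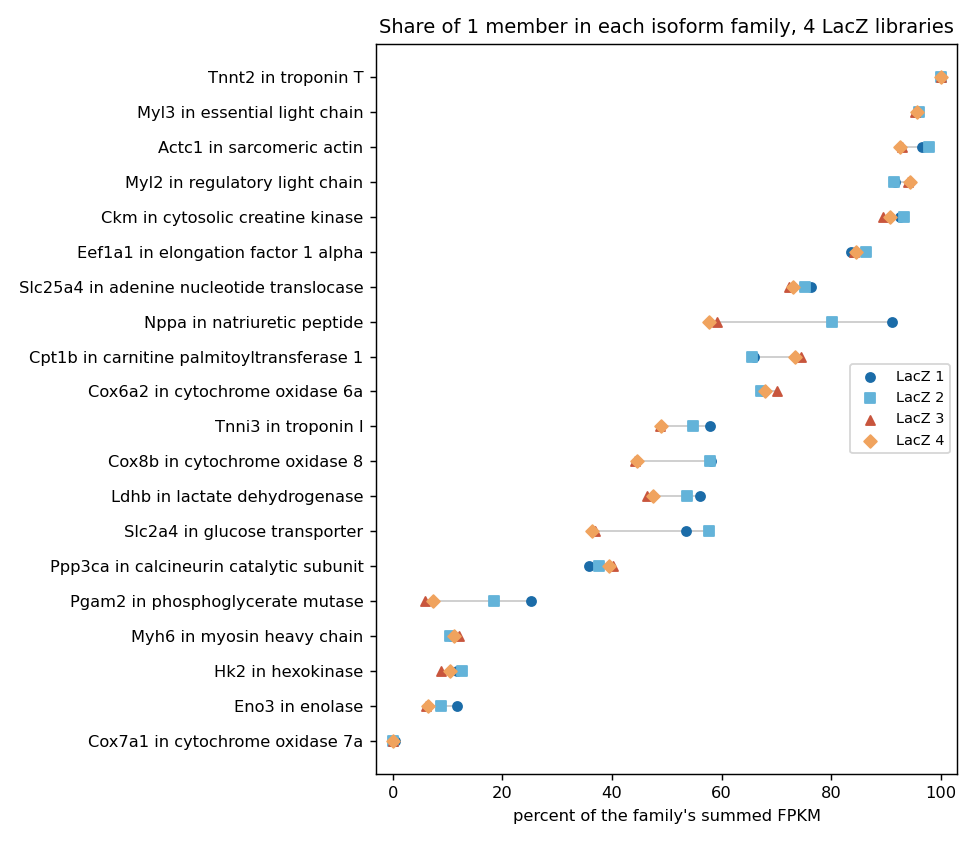
Percent of a family's summed FPKM held by 1 member in each LacZ library, for 20 families, 1 symbol per library joined by a grey line. Tnnt2, Myl3 and Myh6 keep nearly the same share in all 4 libraries, whereas the shares of Nppa, Slc2a4 and Pgam2 spread widely.

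The table listed a single transcript for 10192 symbols, 2 for 2146 and more for the rest. Among 2580 genes that had at least 2 transcripts and averaged 1 FPKM or more, the most abundant transcript held a median of 78.4% of the gene (quartiles 62.5% and 90.6%), and it was the same transcript in all 4 libraries in 2038 genes (79.0%). At a mean of at least 10 FPKM the share was 85.7% of 1724 genes, which leaves 246 with a change. Transcript names are those of the table. Tpm1-205 was the main transcript of Tpm1, with 68.9, 63.4, 66.3 and 66.8% of it, and Tnnt2-201 the main transcript of Tnnt2, with 56.5, 57.8, 61.0 and 61.2%. Csrp3-201 held 65.8, 65.2, 62.6 and 63.3% of Csrp3, although the level of the gene itself spread widely. Pkm-201 held 90.3, 87.7, 86.1 and 87.1% of Pkm.

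Some transcripts were present in 1 library only, or absent from 1. Fhl1-202 was at 152, 2.69, 169 and 154 FPKM, which is 83.4, 1.29, 15.2 and 14.8% of Fhl1. It was nearly absent from LacZ 2, while the other Fhl1 transcripts were low in LacZ 1. Cd36-201, of the fatty acid transporter Cd36, was at 0.779, 74.8, 0.624 and 0.481 FPKM and so was found almost only in LacZ 2, whereas Cd36-004 was level at 47.2, 49.7, 48.4 and 46.9 FPKM. Slc8a1-201, of the sodium-calcium exchanger, was at 50.3, 4.00, 103 and 97.3 FPKM, with the gap again in LacZ 2. Tubb5-201, of a beta-tubulin, was at 1.53, 0.824, 497 and 1.61 FPKM and dominated in LacZ 3 alone, with 0.528, 0.285, 73.8 and 0.370% of the gene. Mx2-202, of an interferon-induced GTPase, was at 272, 8.66, 7.80 and 7.76 FPKM, high in LacZ 1. Ldb3-002, of the Z-disc protein Ldb3, was at 142, 48.9, 151 and 63.7 FPKM, highest in LacZ 1 and LacZ 3. In Tnni1 the lead between Tnni1-001 and Tnni1-201 was narrow, with 53.3, 49.1, 53.5 and 53.8% for the first, and it passed to the other in LacZ 2. The division of reads among transcripts of a gene is an estimate of the assembler, and its part in these patterns was not tested.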

How the data were processed

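RNA was enriched with oligo(dT) beads and made into strand-specific paired-end libraries, as the study's methods state. The authors trimmed adapters with cutadapt, aligned reads with HISAT2, estimated transcripts with StringTie and exported FPKM values per transcript with Ballgown, and the submitters' notes name HISAT2 and StringTie. No source used here gives the tool versions, genome build or annotation. The deposited FPKM values keep no read counts, so depth and counting error are unknown and only the spread between libraries measures precision. Poly(A) selection and the assignment of reads to near-identical genes or overlapping transcripts can move single levels.

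Columns were matched to the LacZ libraries by their labels. Transcript FPKM was added up per gene symbol (96 symbols had several gene IDs, and 51 transcripts without a symbol were kept by ID). Mean, SD, CV and SD of log2(FPKM + 1) were taken over 4 libraries. Ratios of highest to lowest carry a pseudocount of 1 FPKM, and spread was counted in genes that averaged 1 FPKM or more. There was 1 group, so no test was made. Of 942 names in 33 gene lists (24 classes and 9 marker lists), 873 matched a gene. The members and lists were chosen with earlier results of these data known. Named genes were the 25 most abundant, the 10 most abundant that are neither mitochondrial nor ribosomal, the 15 largest and 10 smallest spreads at a mean of at least 10 FPKM, from each list the 3 most abundant and the most variable member, all family members, reference genes and genes of the study, and the 10 most abundant genes with a changing main transcript. Some genes that meet this rule are not reported here. Promoters were matched to RefSeq by symbol. Alternatives were other scalings, filters, pseudocounts, ways of summing, totals without mitochondrial genes and leaving out each library. The calculations, run in Python 3.11.15 with pandas 2.3.3, numpy 2.4.6 and matplotlib 3.10.9, were tested on simulated data.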

Additional observations from a re-analysis of the deposited data

Results flagged for a closer look

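In 261 sets of 4 values (the FPKM of each named gene and the share of each list and family), the gap between an extreme library and the nearest of the others was compared with the range. In 11 sets this gap was large, and chance flags about 1 in 20 such sets. The extreme library was LacZ 1 in 8 of them, LacZ 3 in 2 and LacZ 2 in 1.

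Cox6a2, the heart and muscle form of a cytochrome oxidase subunit, was highest in LacZ 3 at 1412 FPKM, with 1202 to 1226 FPKM in the others. Rpl39 was lowest in LacZ 2 at 298 FPKM, with 531 to 567 FPKM in the others. Polr2l was listed at 0 in LacZ 3, with 24.1 to 24.8 FPKM in the others. LacZ 1 was the lowest for Psmb4, a proteasome subunit, at 184 FPKM (199 to 202 in the others), for Eng, the endothelial receptor endoglin, at 41.7 FPKM (49.3 to 50.01), and for Gusb, a lysosomal enzyme used as a reference gene, at 11.6 FPKM (14.5 to 15.04). It was the highest for Slc2a1, the general glucose transporter, at 51.7 FPKM (41.1 to 42.4), and for Tbp, the TATA-binding protein, at 8.3 FPKM (7.45 to 7.56). LacZ 1 also had the smallest share of the summed FPKM in translation factors, 1.86% (1.92% in each of the others), in ion channels and pumps, 0.253% (0.264% to 0.266%), and in the reference genes, 1.55% (1.64% in each of the others).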

How the results depend on the processing

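No paired analysis was possible because all 4 libraries belong to 1 group. Of the 11934 genes, 1142 had a highest library at least 2-fold above the lowest. The number was 1778 with a pseudocount of 0.1, 1866 with none and 458 among genes averaging 10 FPKM or more, and it ran from 566 (without LacZ 1) to 1045 when single libraries were left out. The median CV of 14.7% was 11.3% for those genes and ran from 12.1% (without LacZ 1) to 15.02% with libraries left out. The percent of genes with the same main transcript, 79.0%, was 85.7% for them and ran from 82.1% to 83.4% with libraries left out, where only 3 need to be alike. Without mitochondrially encoded genes, the 10 most abundant genes held 5.92% and the 100 most abundant 22.8%, ribosomal proteins 10.1% and nuclear respiratory genes 7.25%. In all, 15 of 33 list shares moved by more than 1 SD when those genes left the total. Of 44 family shares, 7 moved when only the most abundant transcript was counted. No list or family share moved by more than 1 SD when a library was left out. The SD is taken over the same 4 libraries, and the mean of 4 values cannot move that far when 1 is dropped. This setting was therefore no check on those shares. The number of genes at the detection limit in all 4 libraries, 11374 at 1 FPKM, was 12672 at 0.1 FPKM, 12104 at 0.5 FPKM, 8187 at 5 FPKM and 12000 with TPM. Depth was not available, so a low level cannot be told from a poorly sampled one.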

Other observations

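Abundant genes were short. The span of a gene in the table, from the first to the last base of its transcripts, had a median of 1.34 kb among the 10 most abundant genes, 3.61 kb among the next 90 and 11.02 kb among the next 900. It was 24.6 kb in the 3000 genes between 12.3 and 4.76 FPKM and 21.4 kb in the least abundant 3784 genes. Mitochondrial genes, which have no introns, made up 6 of the first 10, and 30 ribosomal protein genes were among the next 90. FPKM is divided by transcript length, and the part of that division in the order was not tested.

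Spread also followed abundance. The median CV was 7.03% for the 90 genes after the first 10, 9.41% for the next 900 and 25.1% for the least abundant 3784, but it was 15.1% in the first 10, which hold Actc1, Ankrd1 and 6 mitochondrial genes.

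The 268 genes of the contractile apparatus, of the respiratory chain (mitochondrial and nuclear) and of translation together held 32.8%, 31.9%, 33.5% and 32.5% of the summed FPKM, a mean of 32.7% ± 0.681 (SD, n = 4). The sum was steadier than its contractile part (6.78% ± 1.61) and its respiratory part (14.7% ± 1.64), since the former was higher and the latter lower in LacZ 3 and LacZ 4. These are shares of 1 total, so a rise in one lowers the others.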
